A study of Danio rerio with 6 samples.

Results

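The proteasome genes of zebrafish larvae lacking P2RY11 were examined as 1 group. Every gene whose name in the deposited tables starts with psma, psmb, psmc, psmd, psme, psmf or psmg was taken, which gave 49 of the 19071 listed genes. Of these, 48 had a mean of at least 0.5 FPKM over the 6 libraries and were tested, among 18432 tested genes in all. FPKM is the number of sequenced fragments of a gene scaled to the length of its transcript and to the size of the library, so levels of different subunits can be set side by side.

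P2RY11 is a receptor for extracellular ATP. To profile expression without it, the study bred P2RY11 mutants, which carry a short CRISPR/Cas9 deletion that shifts the reading frame of p2ry11 and descend from a single founder line, and compared them with the WT siblings born to the same kind of heterozygous cross. RNA came from pools of whole animals at 3 days post fertilization, with 3 libraries from P2RY11 mutants and 3 from WT siblings, all kept in the same medium and without treatment. Whether the pools of 1 genotype were from separate clutches is not stated, and p-values therefore cover only the variation seen among these libraries, which may be technical. In whole larvae, fewer cells of a type and less RNA per cell cannot be told apart.

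The proteasome is the barrel-shaped protease that degrades proteins tagged with ubiquitin. Its 20S core holds rings of alpha subunits, which gate the entrance, around rings of beta subunits, some of which cut proteins. The 19S cap binds ubiquitin, removes it, and unfolds the substrate with a ring of ATPases, while separate chaperones assemble core and cap and other activators can take the place of the cap. The roles given for each gene below are those known from mammals and yeast.

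The mutated gene was listed at 0 FPKM in all 3 P2RY11 mutant libraries, against 0.707, 0.853 and 1.02 FPKM in the 3 WT siblings. The two-sided exact permutation p was 0.1, which is the smallest possible with 3 libraries in each genotype. The libraries differed in overall scale. The FPKM of all genes summed to between 426645 and 434740 in mutants and between 443849 and 499493 in WT siblings, and WT sibling replicate 3 stood apart from the others, with a correlation over genes (log2 values) of 0.965 and 0.968 with the other WT siblings, against 0.993 between those. Over all tested genes the median log2 difference, mutant minus WT sibling, was 0.16 on the values as deposited. All log2 differences below are on the log2(FPKM + 1) scale, which understates the change of low genes. Markers of muscle, neurons, epidermis, liver and erythroid cells were all detected.

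Across the proteasome genes, 3 rose and 5 fell in P2RY11 mutants at an adjusted p under 0.05, from a limma fit over all tested genes with Benjamini-Hochberg adjustment. Those that fell were the core subunit genes psmb6 and psma1, the core assembly chaperone psmg1, and the cap genes psmd3 and psmc2. Those that rose were the cap genes psmd7 and psmd12 and the activator psme3. The 5 that fell are 10.4% of the tested proteasome genes, beside 3.98% of all tested genes. The 3 that rose are 6.25%, beside 8.23% of all tested genes, and both directions together make 16.7%, beside 12.2%. The tested proteasome genes had a median log2 difference of -0.11, that is -0.27 relative to the median of all tested genes, and 32 of the 48 were negative. After quantile or cyclic loess normalization the relative median was -0.076.

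Every mutant library lay below every WT sibling library for 18 of the 48 genes (37.5%, beside 11.7% of all tested genes) and above for 6 (12.5%, beside 35% of all tested genes). These shares moved with the scaling. Lower in every mutant were 29.2% with TPM (8.12% of all tested genes), 58.3% with median-of-ratios scaling (21.2%), 35.4% after quantile (19.8%) and 35.4% after cyclic loess normalization (19.9%). Higher in every mutant were 25% with TPM (42% of all tested genes), 0% with median-of-ratios scaling (21.1%), 18.8% after quantile (21%) and 12.5% after cyclic loess normalization (20.9%). The study's cutoffs, a fold over 1.5 and an unadjusted p below 0.05, were also applied to the limma fit. By them 0 proteasome genes rose (4 were higher at that p without the fold) and 2 fell, psmb6 and psma1. The same cutoffs took 9.51% of all tested genes as higher and 3.28% as lower. The fold here was on the log2(FPKM + 1) scale and the study does not name its test, so the study's own selection can differ. The differences called at an adjusted p under 0.05 were between 0.28 and 0.71 in size on the log2 scale.

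**Figure D1:**
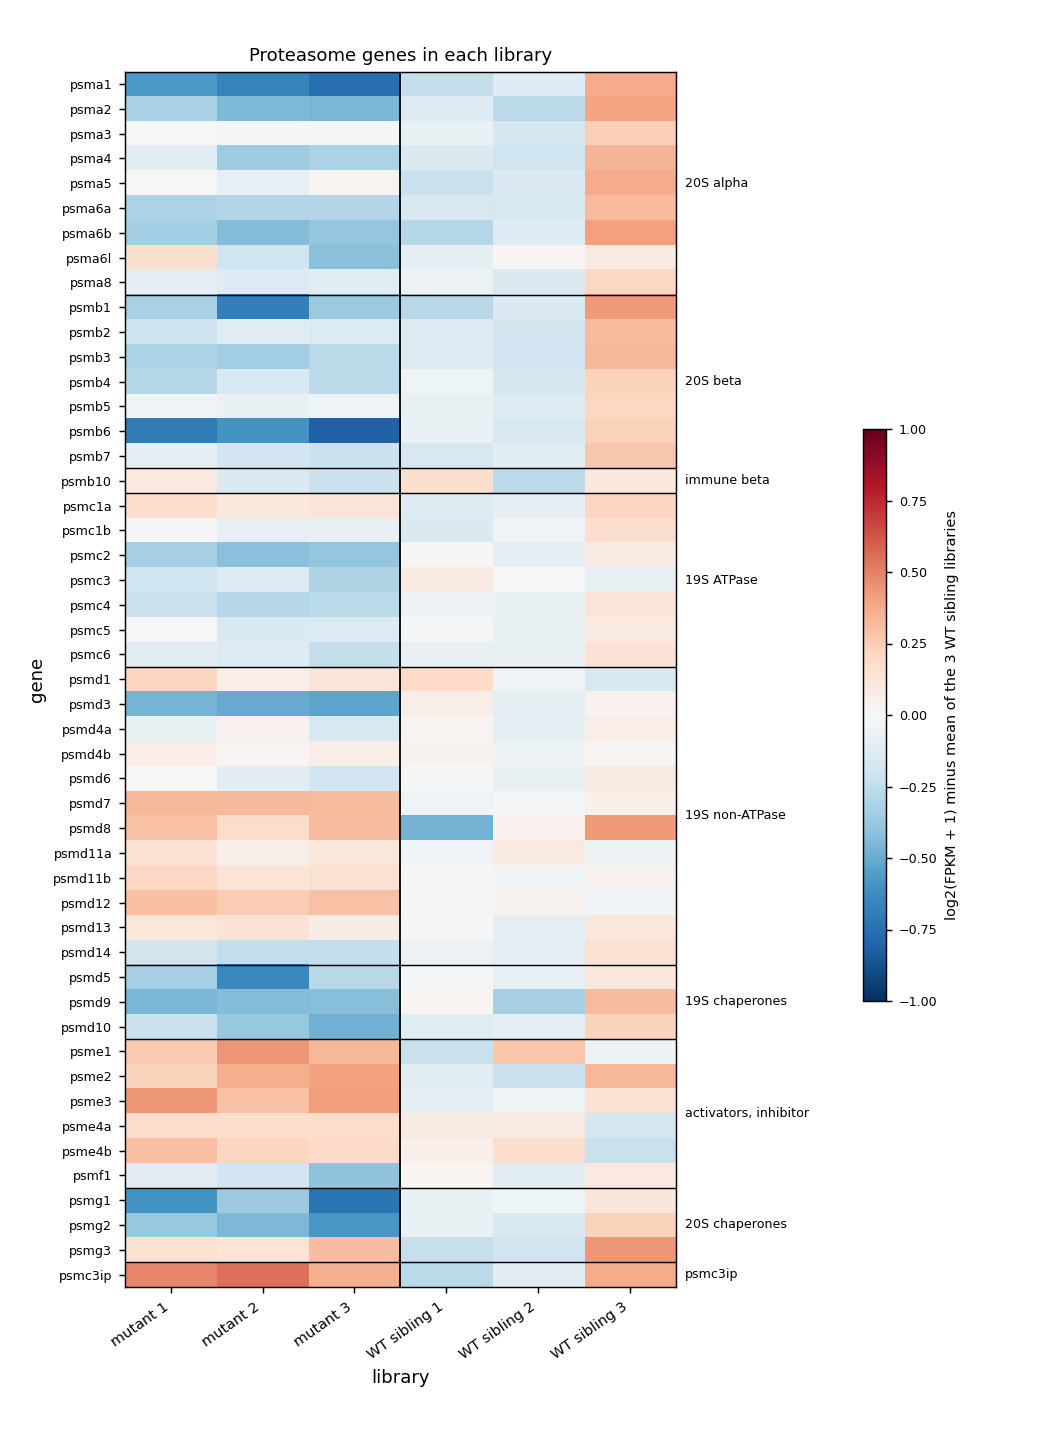
Levels of the 49 proteasome genes (rows, grouped by role) in the 3 P2RY11 mutant and 3 WT sibling libraries (columns), as log2(FPKM + 1) minus the mean of the WT siblings, with blue for lower and red for higher. On average over the 3 mutants the blue is darkest at psmb6, psma1 and psmg1, and WT sibling replicate 3 is red in all 15 tested genes of the 20S core.

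The 20S core genes were all on the negative side. Of the 8 tested alpha subunit genes all 8 had a negative log2 difference, with a median of -0.28, and of the 7 constitutive beta subunit genes all 7, with a median of -0.23. Only psma1 and psmb6 passed the test. These signs depend on the scaling, since all 15 were negative as deposited and with median-of-ratios scaling, but 12 with TPM and 11 after quantile normalization, after cyclic loess normalization or without WT sibling replicate 3.

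The gene psmb6 (ENSDARG00000002240) encodes the catalytic beta subunit with caspase-like activity. Its level was 62.2, 66.9 and 57.6 FPKM in the mutants and 97.1, 90.8 and 119.9 FPKM in the WT siblings. The groups were well apart, and psmb6 fell by 0.71 ± 0.121 on the log2 scale (SE, n = 3 per group, limma adjusted p = 0.0180). The other constitutive catalytic subunits were closer between the groups. For psmb5, which carries the chymotrypsin-like activity, the libraries had 128.6, 124.4 and 127.6 FPKM in mutants and 124.7, 119.8 and 151.4 FPKM in WT siblings. For psmb7, with the trypsin-like activity, they had 101.2, 95.2 and 93.3 FPKM in mutants and 97.2, 100.5 and 131.1 FPKM in WT siblings. Both overlapped between the groups, with 95% intervals of the log2 difference from -0.29 to 0.20 for psmb5 and from -0.46 to 0.12 for psmb7.

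Of the structural beta genes, psmb1 had 121.9, 95.2 and 118.1 FPKM in mutants and 126.5, 138.2 and 205.9 FPKM in WT siblings. The groups did not overlap, but the spread of the WT siblings was wide and the log2 difference of -0.46 did not pass the test (limma adjusted p = 0.137). For psmb3 the groups were also separate, with means of 104 ± 2.84 FPKM in mutants and 131 ± 27.4 FPKM in WT siblings (SD, n = 3 each), while psmb2 and psmb4 overlapped.

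Among the alpha subunits, psma1 (ENSDARG00000101560) had 97.2, 90.8 and 85.4 FPKM in mutants and 122.8, 132.3 and 187.3 FPKM in WT siblings. All 3 mutants were lower, and psma1 fell by 0.67 ± 0.160 on the log2 scale (SE, limma adjusted p = 0.0420). The next in size was psma2, with 66.3 ± 3.39 FPKM in mutants and 90.2 ± 23.0 FPKM in WT siblings (SD, n = 3 each), where the groups did not overlap but the test was not passed (limma adjusted p = 0.128). At the other end psma3 averaged 119 ± 0.905 FPKM in mutants and 121 ± 18.4 FPKM in WT siblings, and psma5 averaged 67.1 ± 2.69 FPKM in mutants and 69.0 ± 16.4 FPKM in WT siblings (SD, n = 3 each). Both copies of psma6 were lower in every mutant library and not called, with log2 differences of -0.30 for psma6a and -0.39 for psma6b, while psma4 and psma8 overlapped between the groups. The log2 differences of the tested alpha subunit genes therefore ranged from -0.67 to -0.01. Whether these genes differ from each other in their change was not tested.

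WT sibling replicate 3 was the highest WT sibling in all 15 tested core genes, by a median log2 of 0.48 over the mean of the other WT siblings, while over all tested genes the same median was -0.12. The summed FPKM of the core genes was 1360.3, 1305 and 1318 in the mutants and 1461, 1437 and 1987 in the WT siblings. The mean of the mutants was 0.815 times that of the WT siblings, or 0.916 times without replicate 3. All 3 mutant sums stayed below the lowest WT sibling.

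The immune subunits, which replace the constitutive catalytic ones in cells exposed to interferon, were represented by psmb10 alone, the counterpart of psmb7. It was near the filter, with 1.13, 0.805 and 0.713 FPKM in mutants and 1.23, 0.659 and 1.14 FPKM in WT siblings, and the groups overlapped. Its ratio to psmb7 was 0.00909 ± 0.00184 in mutants and 0.00931 ± 0.00309 in WT siblings (SD, n = 3 each). The alpha-like gene psma6l was not tested, since its mean was below the filter. It had 0.689, 0.314 and 0.131 FPKM in mutants and 0.410, 0.533 and 0.598 FPKM in WT siblings.

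**Figure D2:**
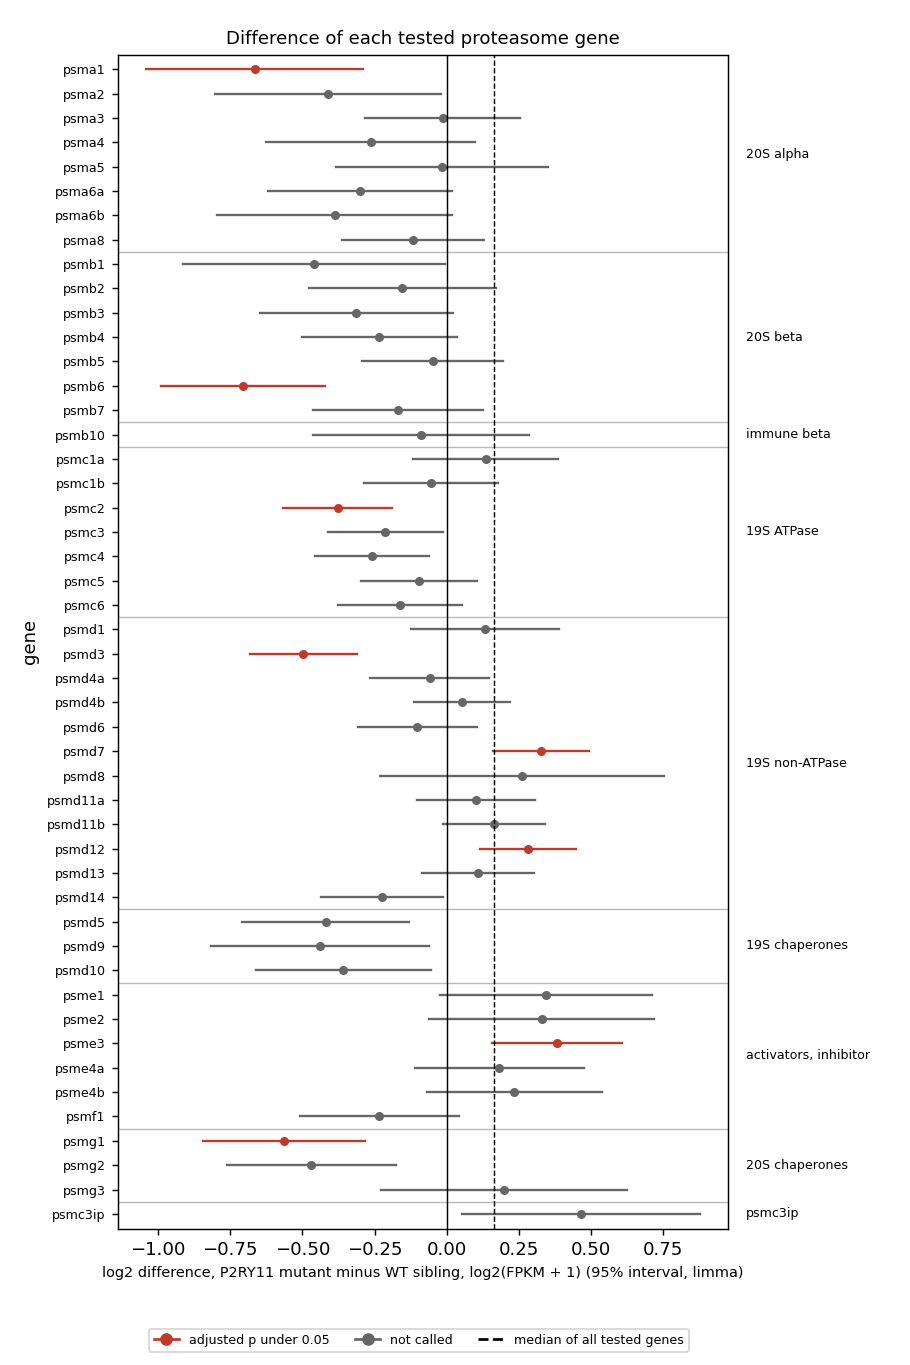
Log2 difference of each of the 48 tested proteasome genes, P2RY11 mutant minus WT sibling, with its 95% interval from limma, grouped by role. Red marks the 8 genes with an adjusted p under 0.05, the solid line is 0 and the dashed line is the median of all tested genes, 0.16.

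The ATPases of the 19S cap form the ring that unfolds substrates. Of 7 genes 6 were negative, with a median of -0.16, and psmc2 (ENSDARG00000020101) passed the test. It had 84.8, 79.8 and 81.2 FPKM in mutants and 107.7, 100.1 and 112.8 FPKM in WT siblings. The groups were separate and psmc2 fell by 0.38 ± 0.0799 on the log2 scale (SE, limma adjusted p = 0.0299). The other ATPase genes differed less, and for psmc3, psmc4 and psmc6 the mutant libraries all lay under the WT siblings without passing the test. Their log2 differences were -0.21 for psmc3, -0.26 for psmc4 and -0.16 for psmc6, and psmc5 overlapped between the groups at -0.10.

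Zebrafish carry 2 copies of psmc1. In mutants psmc1a had 70.0, 66.6 and 67.9 FPKM, against 56.7, 58.2 and 72.2 FPKM in WT siblings. Its partner psmc1b had 43.9, 41.8 and 42.0 FPKM in mutants and 40.02, 43.22 and 50.03 FPKM in WT siblings. Neither passed the test, but the ratio of psmc1a to psmc1b within a library, which a single scaling factor per library cannot change, was 1.59, 1.59 and 1.62 in mutants and 1.42, 1.35 and 1.44 in WT siblings, with no overlap. Reads of such close copies can be shared between them by the quantification, so these levels are less certain than those of single genes.

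The non-ATPase genes of the cap were the mixed group. Of 12 tested genes 8 were positive and 4 negative, with a median of 0.10, and 2 rose and 1 fell. The median was -0.08 with median-of-ratios scaling and positive with TPM, quantile and cyclic loess scaling. Their summed FPKM was 752.6, 732.1 and 723.9 in mutants and 708.1, 698.7 and 772.7 in WT siblings, and the groups overlapped. As a share of all FPKM they did not overlap, at 0.167% to 0.176% in mutants and 0.155% to 0.157% in WT siblings.

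The lid scaffold gene psmd3 (ENSDARG00000018124) had 46.5, 45.2 and 44.4 FPKM in mutants and 67.3, 60.1 and 66.0 FPKM in WT siblings. Here WT sibling replicate 3 was not the highest, and psmd3 fell by 0.50 ± 0.0787 on the log2 scale (SE, limma adjusted p = 0.0151), the smallest adjusted p among the proteasome genes. The lid gene psmd12 (ENSDARG00000052377), another scaffold of the same subcomplex, had 61.3, 59.3 and 61.0 FPKM in mutants and 49.4, 50.8 and 48.8 FPKM in WT siblings. Both groups were tight and separate, and psmd12 rose by 0.28 ± 0.0700 on the log2 scale (SE, limma adjusted p = 0.0453).

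The gene psmd7 (ENSDARG00000102417) encodes the inactive partner of psmd14, the metalloprotease that cuts ubiquitin off the substrate. In mutants psmd7 had 88.7, 88.3 and 87.8 FPKM, against 68.3, 69.6 and 72.9 FPKM in WT siblings. It rose by 0.33 ± 0.0710 on the log2 scale (SE, limma adjusted p = 0.0327). Its catalytic partner psmd14 had 85.5, 81.9 and 82.5 FPKM in mutants and 93.4, 91.3 and 108.5 FPKM in WT siblings. Those groups were separate in the opposite direction, with a log2 difference of -0.22 that did not pass the test (limma adjusted p = 0.126).

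These opposite differences show in ratios within each library, which a single scaling factor per library cannot change. The pairs were picked after the values had been seen, so the ratios are a description without a test. The ratio of psmd7 to psmd14 was 1.04, 1.08 and 1.06 in mutants and 0.730, 0.762 and 0.672 in WT siblings. The ratio of psmd12 to psmd3 was 1.32, 1.31 and 1.38 in mutants and 0.734, 0.846 and 0.739 in WT siblings. In both pairs the order of the members was reversed between genotypes, with the first above the second in every mutant and below it in every WT sibling.

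**Figure D3:**
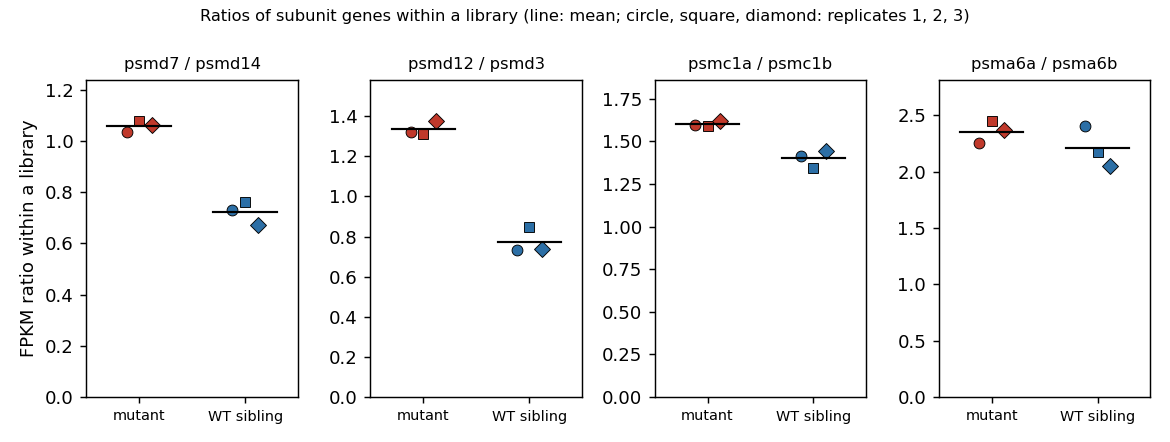
Ratio of the FPKM of subunit genes within a library, for P2RY11 mutants (left, red) and WT siblings (right, blue), with a line at the mean of 3 libraries and the replicates as points. The groups do not overlap for psmd7 to psmd14, psmd12 to psmd3 and psmc1a to psmc1b, and overlap for psma6a to psma6b.

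For the other gene copies shown, the ratios of the groups overlapped. The alpha subunit pair psma6a and psma6b had a ratio of 2.36 ± 0.0984 in mutants and 2.21 ± 0.182 in WT siblings (SD, n = 3 each). The ubiquitin receptor pair psmd4a and psmd4b had 0.828 ± 0.0708 in mutants and 0.895 ± 0.0311 in WT siblings. The lid pair psmd11b and psmd11a had 1.81 ± 0.0189 in mutants and 1.73 ± 0.138 in WT siblings. In each of these the ranges of the groups overlapped. The lid gene psmd11b, with 28.3 ± 0.835 FPKM in mutants and 25.2 ± 0.666 FPKM in WT siblings, was higher in all 3 mutants without passing the test (limma adjusted p = 0.166).

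Among the remaining cap genes, psmd8 had 66.2, 61.1 and 66.7 FPKM in mutants and 38.4, 55.6 and 72.8 FPKM in WT siblings. The WT siblings spanned the mutants on both sides, and the log2 difference of 0.26 did not pass the test (limma adjusted p = 0.395). The remaining psmd1, psmd4a, psmd4b, psmd6, psmd11a and psmd13 all overlapped between the groups, with log2 differences from -0.10 for psmd6 to 0.13 for psmd1. The gene psmd2, a scaffold of the cap, is written in capitals in the tables and so was outside the naming rule. As PSMD2 it had 52.2, 48.0 and 48.3 FPKM in mutants and 54.9, 54.5 and 27.4 FPKM in WT siblings, where replicate 3 was the lowest library. Its log2 difference was 0.18 (limma adjusted p = 0.624).

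The assembly chaperones were lower as a group of 6, in 5 of 6 genes. The pair psmg1 and psmg2 forms the heterodimer on which the alpha ring is built. In mutants psmg1 (ENSDARG00000040620) had 12.66, 15.02 and 11.45 FPKM, against 18.58, 19.002 and 21.51 FPKM in WT siblings. It fell by 0.56 ± 0.120 on the log2 scale (SE, limma adjusted p = 0.0301). Its partner psmg2 had 13.3, 12.6 and 11.4 FPKM in mutants and 16.7, 15.6 and 20.8 FPKM in WT siblings. It lay just outside the threshold, with a log2 difference of -0.47 ± 0.125 (SE, limma adjusted p = 0.0520), and the groups were separate for both genes.

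The third core chaperone listed, psmg3, went the other way in mean level. It had 20.005, 19.8 and 22.5 FPKM in mutants and 15.2, 15.5 and 24.5 FPKM in WT siblings, and the groups overlapped by WT sibling replicate 3 alone. The base chaperones psmd5, psmd9 and psmd10, which help assemble the ATPase ring, had log2 differences of -0.42, -0.44 and -0.36. In each of the 3 genes every mutant library was below every WT sibling, but 0 passed the test (unadjusted p under 0.05 in 3, limma adjusted p between 0.0660 and 0.103). The medians of the core chaperones, -0.47, and of the base chaperones, -0.42, were negative under every scaling tried.

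The activators were the only role group with a positive median in every scaling tried, 0.28 on the deposited values, with 5 of 6 genes positive. All but psme3 averaged below 10 FPKM. On the deposited values the median of all tested genes was 0.21 between 0.5 and 2 FPKM, and also 0.21 between 2 and 10 FPKM. The nuclear activator psme3 (ENSDARG00000012234) had 30.0, 27.2 and 29.7 FPKM in mutants and 20.4, 21.3 and 24.3 FPKM in WT siblings. The groups did not overlap, and psme3 rose by 0.38 ± 0.0956 on the log2 scale (SE, limma adjusted p = 0.0458). The interferon-inducible pair psme1 and psme2 was much lower in level. For psme1 the mutants had 1.69, 2.04 and 1.83 FPKM and the WT siblings 0.927, 1.72 and 1.1695 FPKM.

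For psme2 the mutants had 0.965, 1.1703 and 1.22 FPKM and the WT siblings 0.554, 0.453 and 1.12 FPKM. Neither gene passed the test and both overlapped between the groups. Both copies of psme4, a single-chain activator, were slightly higher in every mutant library. So were 35.7% of all tested genes between 0.5 and 2 FPKM, the level of psme4a, and 38.9% between 2 and 10 FPKM, the level of psme4b. In mutants psme4a had 1.55, 1.53 and 1.55 FPKM, against 1.38, 1.39 and 0.980 FPKM in WT siblings. Its copy psme4b had 8.11, 7.55 and 7.42 FPKM in mutants and 6.63, 7.33 and 5.34 FPKM in WT siblings. The inhibitor psmf1 was the only negative gene of the group, at -0.23.

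**Figure D4:**
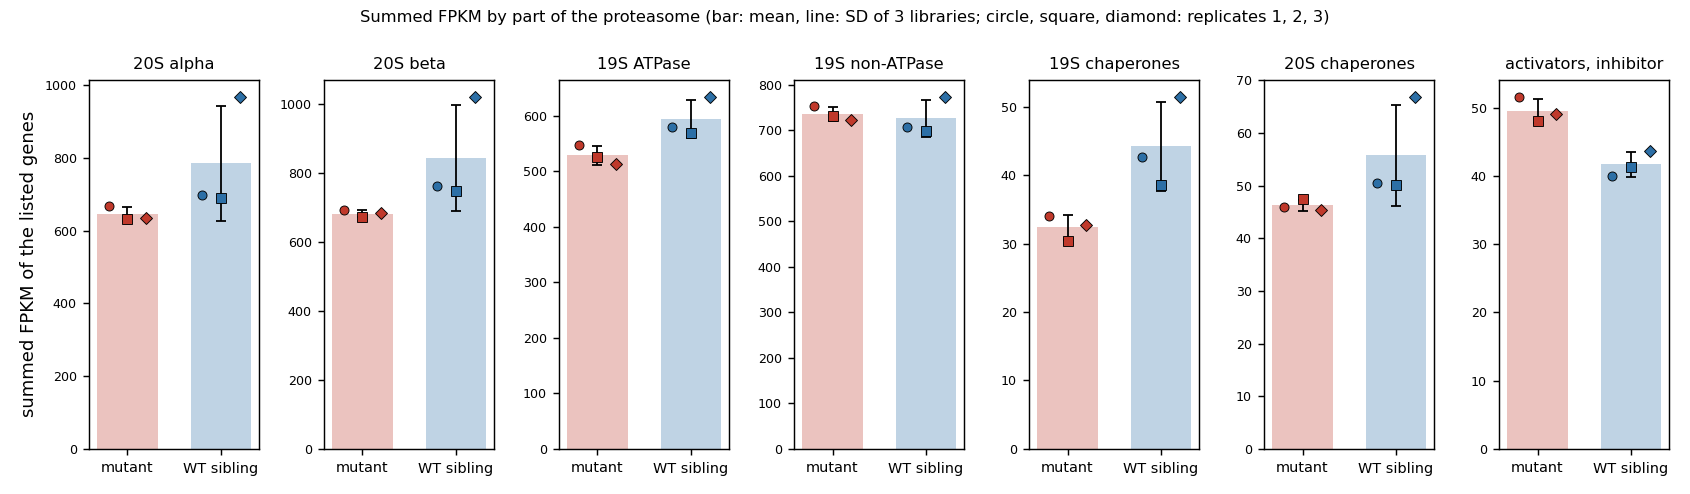
Summed FPKM of each role group in P2RY11 mutants (left bar, red) and WT siblings (right bar, blue), with the bar at the mean, the line at the SD of 3 libraries and the replicates as circle, square and diamond. The activators, drawn with the inhibitor psmf1, are the group whose mutant sums, 48.1 to 51.5, all lie above the WT siblings, 40.03 to 43.71. The called gene psme3 is the largest part of these sums, at 27.2 to 30.0 in mutants and 20.4 to 24.3 in WT siblings.

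The last gene that the naming rule takes is psmc3ip, a recombination factor of meiosis that is named for its binding to psmc3 and is no part of the proteasome. It had the most positive log2 difference of the tested genes taken by the rule, 0.47. It had 8.86, 9.31 and 7.98 FPKM in mutants and 4.84, 5.51 and 8.10 FPKM in WT siblings. The groups overlapped by WT sibling replicate 3 alone and the test was not passed (limma adjusted p = 0.109).

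Summed over all 49 genes, the FPKM was 2801, 2698 and 2692 in mutants and 2889, 2840.4 and 3564 in WT siblings. The mean of the mutants was 0.881 times that of the WT siblings, or 0.953 times without WT sibling replicate 3. The proteasome genes made up 0.634% ± 0.0201 of all FPKM in mutants and 0.665% ± 0.0419 in WT siblings (SD, n = 3 each). By that share the groups overlapped.

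The spread between the 3 replicates was smaller in mutants, but WT sibling replicates 1 and 2 were close to each other. Over all tested genes the median absolute log2 difference was 0.109 between these 2 libraries. It was 0.276 and 0.293 for their pairs with WT sibling replicate 3, and 0.121 to 0.128 between mutants. The median coefficient of variation of the tested proteasome genes was 4.77% in mutants and 14.0% in WT siblings, beside 9.48% in mutants and 17.3% in WT siblings over all tested genes. For the 30 proteasome genes with a mean of at least 40 FPKM it was 3.19% in mutants and 12.9% in WT siblings, beside 5.01% in mutants and 12.4% in WT siblings for the 1594 tested genes at that level.

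The level of a gene moved with its difference across the whole table, and proteasome genes are abundant. Between 40 and 200 FPKM, where 30 of the tested proteasome genes lie, the 1257 tested genes had a median log2 difference of -0.03, against 0.21 for the 4642 genes between 0.5 and 2 FPKM. The proteasome genes at 40 to 200 FPKM had a median of -0.16. Between 10 and 40 FPKM the 11 proteasome genes had a median of -0.36, beside 0.11 for all 4243 genes of that level. In the RefSeq annotation of assembly GRCz12tu, which matched all 49 genes by name or synonym, the tested proteasome genes spanned a median of 11051 bases, against 18737 bases for all tested genes with a span. Among the 3990 genes with the shortest spans, up to 8550 bases, 14 proteasome genes had a median log2 difference of -0.22 and all genes 0.0049. The part of level and length in the difference was not tested.

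Markers of several cell types also differed. As background for their counts, 8.23% of all tested genes rose and 3.98% fell. Of 11 leukocyte markers 4 fell and 0 rose, and their summed FPKM ranged from 88.8 to 108.3 in mutants and from 147.1 to 194.8 in WT siblings. Most of that sum was lyz, with a mean of 66.3 FPKM in mutants and 124.2 FPKM in WT siblings. Not called were lcp1, at -0.33 on the log2 scale, and csf1ra, ptprc, mpx, mpeg1.1, spi1b and cybb, at 0.05 to 0.36. Of 6 erythroid markers 4 fell and 0 rose, with sums between 380.9 and 486.8 FPKM in mutants and between 1285 and 1833 FPKM in WT siblings. Most of the gap between these sums was hbbe1.1, with means of 98.4 FPKM in mutants and 995 FPKM in WT siblings. Neither cahz, at -0.07 on the log2 scale, nor gata1a, at 0.13, was called. Of 5 liver markers 2 fell, tfa and apoa1b, and 0 rose, with sums between 1775 and 2019.7 FPKM in mutants and between 2783 and 3167 FPKM in WT siblings. Of 6 muscle markers 0 passed the limma test (2 lower at an unadjusted p under 0.05), yet their sums, 8285 to 9218 FPKM in mutants and 10313 to 10767 FPKM in WT siblings, did not overlap. As a share of all FPKM they did overlap, at 1.94% to 2.13% in mutants and 2.08% to 2.39% in WT siblings. Among 6 neuron markers elavl3 rose and sncb fell, among 5 epidermis markers cyt1 fell, and among 7 markers of dividing cells mki67 rose. None of the leukocyte or erythroid markers was listed at 0 in any library. The part of these markers in the proteasome values was not tested.

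The calls depended on which libraries were in the fit. Without mutant replicate 1, 2 or 3, 0 proteasome genes passed the limma test, beside 1.54%, 1.49% and 1.05% of all tested genes, and without WT sibling replicate 1 also 0, beside 2.05%. At an unadjusted p under 0.05 these 4 fits held 3 or 4 higher and 7 to 13 lower proteasome genes. The share of all tested genes at an unadjusted p alone was not computed. These and the other counts at an unadjusted p can therefore not be set against a background. Without WT sibling replicate 2, psmb6, psmd3, psmc2 and psmd9 fell, beside 2.93% of all tested genes, and 0 rose (4 at an unadjusted p under 0.05), beside 7.34%. Without WT sibling replicate 3, 9 fell and 8 rose, beside 8.11% and 20.1% of all tested genes: psmc3, psmc4, psmg2 and psmd5 joined the 5 that fell, and psmd8, psmc1a, psme2, psmc3ip and psmg3 joined the 3 that rose. The 8 called genes kept the sign of their log2 difference under every alternative run. Their groups do not overlap, so only the changes of scaling could have reversed a sign. The 3 that rose, psmd12, psmd7 and psme3, did not pass the test with median-of-ratios scaling, where 0 rose (0 also at an unadjusted p under 0.05), beside 3.62% of all tested genes, and 8 fell, beside 5.7%. After quantile or cyclic loess normalization psme3 did not pass either. It passed in 5 of the 16 alternatives, against 9 for psmd7 and 9 for psmd12.

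**Figure D5:**
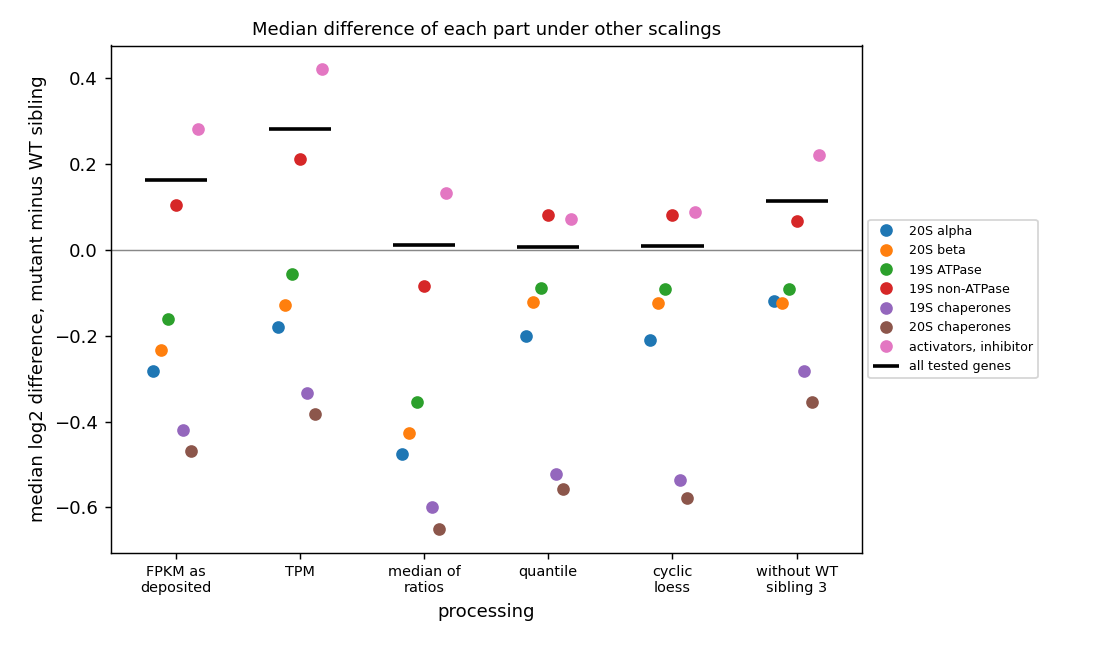
Median log2 difference (P2RY11 mutant minus WT sibling) of each role group as coloured points and of all tested genes as black lines, for the FPKM as deposited, 4 other scalings and without WT sibling replicate 3. The core, ATPase and chaperone groups lie below 0 and below the line of all genes in each column, the activators lie above both, and the non-ATPase group changes sign under median-of-ratios scaling.

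The genes that act around the proteasome were mixed. Of 16 tested partners outside the naming rule 2 rose and 2 fell, with a median of 0.07. Over all tested genes 8.23% rose and 3.98% fell. The adaptor akirin2, which brings proteasomes into the nucleus, had 22.8, 22.4 and 18.2 FPKM in mutants and 36.6, 30.9 and 32.4 FPKM in WT siblings and fell (limma adjusted p = 0.0210). The gene fbxo7, whose product binds the inhibitor psmf1 in mammals, had 3.79, 2.15 and 2.44 FPKM in mutants and 5.13, 6.15 and 6.23 FPKM in WT siblings and also fell (limma adjusted p = 0.0286). In the other direction midn, which carries proteins to the proteasome without ubiquitin, rose by 0.46, and dyrk2, a kinase that phosphorylates the cap, rose by 0.47. The core maturation factor pomp had 89.9, 78.2 and 93.1 FPKM in mutants and 99.7, 99.1 and 171.7 FPKM in WT siblings and was not called.

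The 12 tested genes that control transcription of proteasome subunits had a median of 0.28, beside 0.16 for all tested genes. Of the 12, 10 were positive and 2 rose, beside 8.23% of all tested genes. Between 0.5 and 2 FPKM, the level of nfe2l2b, nfe2l1a, mafga, mafgb and mafk, all tested genes had a median of 0.21. The mean summed FPKM of the list in mutants was 1.09 times that in WT siblings, or 1.01 times without WT sibling replicate 3. By limma 0 fell, with 1, nfe2l2a, lower at an unadjusted p under 0.05. The transcription factor gene nfe2l2b had 1.54, 1.60 and 1.55 FPKM in mutants and 0.867, 0.563 and 0.571 FPKM in WT siblings. It rose by 0.63 ± 0.120 on the log2 scale (SE, limma adjusted p = 0.0235). The protease ddi2, which activates nfe2l1 proteins, had 19.4, 17.6 and 19.4 FPKM in mutants and 14.48, 14.58 and 13.04 FPKM in WT siblings and rose by 0.40. The nfe2l1 genes themselves, whose proteins raise transcription of proteasome genes when the proteasome is inhibited, did not pass the test, with log2 differences of 0.39 for nfe2l1b (limma adjusted p = 0.0656) and 0.08 for nfe2l1a.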

How the data were processed

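RNA-seq of 3 P2RY11 mutant and 3 WT sibling libraries was used. The authors trimmed and aligned reads and estimated abundance with StringTie, and deposited gene-level FPKM computed with Ballgown. Versions in the submitters' processing notes are StringTie 1.3.3, HISAT2 2.1.0, cutadapt 1.17 and FastQC 0.11.7. The methods name a zebrafish assembly and the notes a human one, while gene identifiers are those of zebrafish. Of the table headers 4 name the unit and 2 leave it empty. Depth and strand setting are not given in the sources used here.

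Values were transformed as log2(FPKM + 1), genes averaging 0.5 FPKM or more were kept (639 were not), and limma 3.58.1 in R 4.3.3 (eBayes with a trend, no covariate, two-sided, Benjamini-Hochberg) compared mutants with WT siblings over 18432 genes. Calls used an adjusted p under 0.05. Member genes and all gene lists were chosen with earlier results of these data known. Values per library were given for genes called under either criterion, the 5 most positive and 5 most negative members, gene copies and members below the filter, and of other lists up to 4 called genes. psmb1, psmb5, psmb7, psmb10, psmd8, psmd14, pomp, nfe2l1a, nfe2l1b, nfe2l2a, ube2h, ube2d4 and ube2r2 and the ratios of different subunits were added after their values had been seen. So were the values of single leukocyte and erythroid markers. Alternatives were pseudocounts of 0.1 and 0.5, no filter or one at 1 FPKM, TPM, median-of-ratios, quantile and cyclic loess scaling, an ordinary linear model, a replicate block and leaving out each library. Figures used matplotlib 3.10.9 in Python 3.11.15.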

Additional observations from a re-analysis of the deposited data

How the results depend on the processing

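The directions of the 8 called proteasome genes held under each of the 16 alternatives run, but the counts did not. Only TPM, median-of-ratios, quantile and cyclic loess scaling could have reversed a direction, since the groups of these genes do not overlap. The other alternatives are therefore no check of the directions. With median-of-ratios scaling 0 rose and 8 fell, the median of the tested genes was -0.30 and the ratio of summed FPKM was 0.763. Under the study's cutoffs, applied to the limma fit, 0 rose and 2 fell. With an ordinary linear model 2 rose and 1 fell, but the share of all tested genes was not computed for that model. These counts can therefore not be set against a background. Leaving out each library in turn gave 0 to 8 that rose, 0 to 9 that fell and medians from -0.19 to -0.04. Relative to all genes the median was -0.076 after quantile and -0.076 after cyclic loess normalization, and from -0.39 to -0.15 with 1 library left out. Replicate numbers are shared by the groups, but the deviations of same-numbered libraries correlated by 0.02, 0.07 and 0.14, so the numbers were not taken as pairs. With the replicate block 0 rose (4 at an unadjusted p under 0.05), beside 3.65% of all tested genes, and 2 (4.17%) fell, beside 2.19%.

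Scaling also moved the split of calls over all genes, from 1517 higher and 733 lower as deposited to 668 and 1050 with median-of-ratios scaling, 980 and 1310 after quantile and 831 and 1189 after cyclic loess normalization, 1768 and 526 with TPM, and 672 and 404 with the replicate block. The median of all tested genes was 0.28 with TPM and 0.01 with the other 3 scalings. The cause of these shifts was not tested. Depth is unknown, since the tables hold FPKM, so no counting error can be given.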

Other observations

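Upstream of the proteasome, of the 8 tested ubiquitin and E1 genes 0 passed the limma test (1 higher and 0 lower at an unadjusted p under 0.05), beside 12.2% of all tested genes. As background for the calls in the lists below, 8.23% of all tested genes rose and 3.98% fell. Of 35 tested E2 genes, which hand ubiquitin to substrates, ube2d2 rose by 0.55 and ube2v1 fell by 0.76 on the log2 scale. By the study's cutoffs on the limma fit, which ube2d2 did not meet, ube2h, ube2d4 and ube2r2 were higher. Their differences were 0.78, 0.79 and 0.86, with limma adjusted p of 0.0508, 0.0543 and 0.101. For each of them WT sibling replicate 3 was the lowest library, at 18.0, 4.01 and 1.42 FPKM. The levels of ube2v1, a partner in building ubiquitin chains, were 69.7, 59.8 and 59.3 FPKM in P2RY11 mutants and 99.6, 101.6 and 120.1 FPKM in WT siblings, with no overlap. Among 21 genes of the p97 unfoldase and its shuttles ubxn7 rose by 0.45 and ubxn4 fell by 0.72.

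The COP9 signalosome is built on the same plan as the proteasome lid. Of its 7 tested genes cops2 rose by 0.47, with 69.1, 63.9 and 65.3 FPKM in P2RY11 mutants and 47.2, 45.5 and 50.03 FPKM in WT siblings, and 0 fell (0 also at an unadjusted p under 0.05). The gene cops3 was higher at that unadjusted p without being called. Downstream, 0 of 8 peptidases that trim proteasome products passed the limma test (0 also at an unadjusted p under 0.05). Of 14 genes of class I antigen presentation, stat1a rose by 0.43, beside 8.23% of all tested genes that rose. In that list 0 fell (0 also at an unadjusted p under 0.05), beside 3.98% of all tested genes. Higher at that unadjusted p without being called were tapbp.1, calr3b, mhc1zba and erap2.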
